A study of Mus musculus with 2 samples.

Results

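Retinoic acid is the active form of vitamin A. It is made from retinol by way of retinal, held in the cytoplasm by binding proteins, broken down by cytochrome P450 enzymes and read out by nuclear receptors. The Aldh1a enzymes oxidise retinal to retinoic acid, the Cyp26 enzymes inactivate it, Crabp1 and Crabp2 bind it in the cytoplasm, and the retinoic acid receptors Rara, Rarb and Rarg bind DNA together with an RXR partner. In mouse embryos these genes set where the signal reaches, and both too much and too little retinoic acid are known to disturb the formation of the face and jaws.

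The 10 genes described here are Aldh1a1, Aldh1a2, Aldh1a3, Cyp26a1, Cyp26b1, Crabp1, Crabp2, Rara, Rarb and Rarg, chosen by name for their place in this pathway. All 10 were found in the deposited tables, on 15 of the 28107 transcript rows that stand for 22072 gene symbols. They were measured by RNA-seq in lower molar mesenchyme cut by laser capture from frozen heads of mouse embryos at embryonic day 14.5, on a mixed background. The mutant library came from Osr2-/- embryos (n = 1) and the control library from Osr2+/- embryos (n = 1), so both genotypes carry at least 1 mutant Osr2 allele. Each library was made from pooled tissue of 3 samples. No replicate was sequenced, and the values below describe these libraries, with no test of genotype. The mutant library held about 34.3 M mapped reads and the control library about 5.38 M, as estimated from coverage. Of these, about 7.88 M in the mutant library and 1.45 M in the control library lay on the listed transcript rows.

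Osr2, a zinc-finger transcription factor gene of the dental mesenchyme, was at 9.16 RPKM in the mutant library and 38.7 RPKM in the control library. RPKM counts reads for each kilobase of a transcript and is scaled to the library's mapped reads. Osr2 was thus lower by 4.23-fold in the mutant library (95% interval from counting error, 3.69 to 4.84), the direction its label gives. Such intervals rest on approximate read numbers, taken as coverage times transcript length over the bases of 1 read. The sources used here do not say which part of the gene the mutant lacks. The defining genes of dental mesenchyme were present in both libraries. Prrx1 was at 122 RPKM in the mutant library and 151 RPKM in the control library, Msx1 at 36.8 and 40.0 RPKM, and the 12 markers together at 349.9 and 432 RPKM. Markers of other tissues were present too. Epithelial markers summed to 72.7 RPKM in the mutant library and 53.1 RPKM in the control library, osteoblast markers to 50.5 and 18.6 RPKM, and erythroid markers to 927 and 1163 RPKM.

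The upstream sequences of 2 of the 10 genes carry the best known element of this pathway, a direct repeat of the receptor half-site with a spacer of 5 bases. RefSeq windows on GRCm38.p6, from 250 bases before to 50 bases after a transcript start, were at hand for 8 of the 10 genes, in 13 windows. They were searched on both strands for 2 half-sites in the same direction, with 5 bases between them. The spellings taken as a half-site were AGGTCA (the textbook form), AGTTCA (found in both repeats shown here), GGGTCA (a further variant) and GGTTCA (found in the Rarb repeat). Matches could overlap. Among the members only Rarb and Cyp26a1 held such a repeat, while 32 (0.0974%) of all 32851 windows did. AGTTCA and GGTTCA are the spellings of these same repeats. The share of all windows thus does not measure how unusual the 2 members are. The Rarb window lies on chromosome 14, minus strand, at chr14:16575427-16575726, and the Cyp26a1 window on chromosome 19, plus strand, at chr19:37697558-37697857. Both are shown 5′ to 3′ in the direction of the gene, with the repeat in capitals.
Rarb: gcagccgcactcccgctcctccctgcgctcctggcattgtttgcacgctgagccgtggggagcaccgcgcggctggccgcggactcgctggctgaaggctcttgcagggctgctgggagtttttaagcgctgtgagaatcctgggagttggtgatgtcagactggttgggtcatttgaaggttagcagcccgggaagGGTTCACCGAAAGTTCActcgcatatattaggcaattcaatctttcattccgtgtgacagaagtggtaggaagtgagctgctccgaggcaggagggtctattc
Cyp26a1: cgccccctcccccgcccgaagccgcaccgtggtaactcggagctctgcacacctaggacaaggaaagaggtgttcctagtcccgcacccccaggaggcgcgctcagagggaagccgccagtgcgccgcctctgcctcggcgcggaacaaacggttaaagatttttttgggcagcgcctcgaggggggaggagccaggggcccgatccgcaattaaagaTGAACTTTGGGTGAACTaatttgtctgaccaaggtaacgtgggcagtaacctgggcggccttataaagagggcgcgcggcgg
In Rarb the repeat reads in the direction of the gene and covers positions -53 to -37 from the start. In Cyp26a1 it covers positions -32 to -16 and reads as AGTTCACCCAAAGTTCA on the opposite strand. The same half-sites with a spacer of 1 or 2 bases were found in 0.222% and 0.268% of all windows, and in none of the member windows. A match describes these letters and is not evidence of binding in this tissue. The levels of Rarb and Cyp26a1 in the 2 libraries are given further on.

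Each enzyme and binding step of the pathway was carried mostly by 1 gene in both libraries. Aldh1a2 made up 97.8% of the summed RPKM of the Aldh1a genes in the mutant library and 97.7% in the control library. Cyp26b1 made up 98.6% of the Cyp26 sum in the mutant library and 99.3% in the control library, and Crabp1 made up 74.4% and 72.7% of the Crabp sum. Among the receptors Rara held 60.3% of the summed RPKM in the mutant library and 59.0% in the control library, Rarg 31.9% and 37.9%, and Rarb 7.80% and 3.03%.

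From highest to lowest RPKM, the order in the mutant library was Crabp1, Cyp26b1, Crabp2, Aldh1a2, Rara, Rarg, Rarb, Cyp26a1, Aldh1a1 and Aldh1a3. The order in the control library was Crabp1, Cyp26b1, Rara, Crabp2, Rarg, Aldh1a2, Rarb, Cyp26a1, Aldh1a1 and Aldh1a3. The first and second places and the last 4 were thus held by the same genes in both. Of neighbours in these orders, the counting intervals of Aldh1a2 and Rara overlapped in the mutant library. In the control library those of Crabp1 and Cyp26b1 overlapped, as did those of each neighbouring pair from Rara to Aldh1a2 and from Rarb to Aldh1a3. In the mutant library the pairs from Cyp26a1 to Aldh1a3 overlapped as well. The changes of place thus lie in the middle of the order, where the shallower control library does not separate neighbours. Rara and Aldh1a2, which are not neighbours there, changed places too. Their intervals were apart in the control library (9.96 to 13.3 and 5.14 to 8.09 RPKM) but overlapped in the mutant library.

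**Figure D1:**
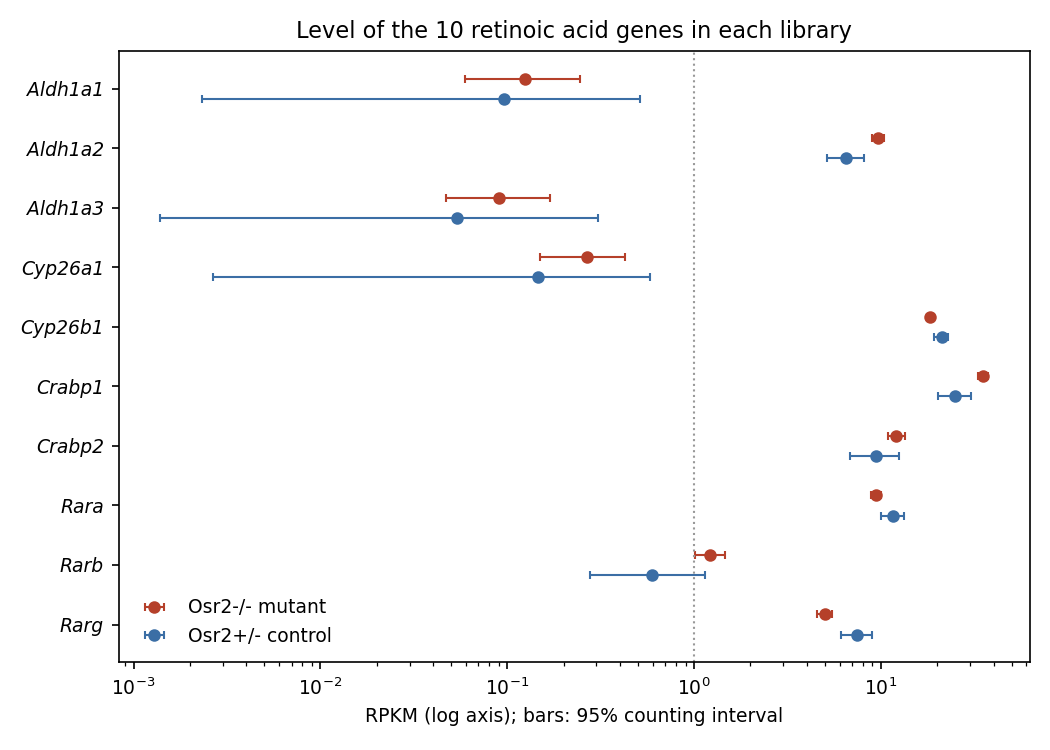
RPKM on a log axis of the 10 retinoic acid genes in the Osr2-/- mutant library and the Osr2+/- control library, with 95% counting intervals and a dotted line at 1 RPKM. Crabp1 and Cyp26b1 were the most abundant in both libraries, and Aldh1a1, Aldh1a3 and Cyp26a1 stayed below 1 RPKM in both.

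None of the 10 genes was at least 2-fold apart between the libraries on the scale of log2(RPKM + 1). This scale understates differences of low genes. Over the 9779 genes at 1 RPKM or more in at least 1 library, 1.69% were at least 2-fold apart, 0.89% higher and 0.798% lower in the mutant library. Values were also rescaled to the same sum over all rows in each library, including failed and high-data rows left out elsewhere (the TPM scale). There 11.2% were apart, but the value added and the filter were kept at 1 and so acted at lower RPKM. The 11.2% thus reflects a smaller added value and a looser filter as well as the rescaling. Before rescaling, the higher ones made up 52.7% of the genes apart. This share lay on either side of an even split under other settings, at 35.9% with only the highest transcript row of a gene and 62.1% on the TPM scale. Of the members 7 reached 1 RPKM in at least 1 library, Rarb only in the mutant library. The median log2 ratio was 0.10 over all 10 members and -0.05 over the 9779 genes. The 95% counting interval of the fold excluded 1 for 6 members, 3 higher and 3 lower in the mutant library. Over the 9779 genes this held for 23.8%, with 7.87% higher and 15.9% lower. Among the 6 members that reached 1 RPKM in both libraries, 2 had an interval above 1 and 3 below 1. No share over all genes that reached it in both was computed, here or for the lists below. Intervals also narrow with reads. The median gene tested had about 57 control reads, these 5 members about 79 to 532, and Crabp2, whose interval included 1, about 45. Intervals here cover counting error only. The reads were amplified and carry no molecular identifiers, so they are not independent, and an interval that excludes 1 sets the reads of 2 libraries against each other.

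**Figure D2:**
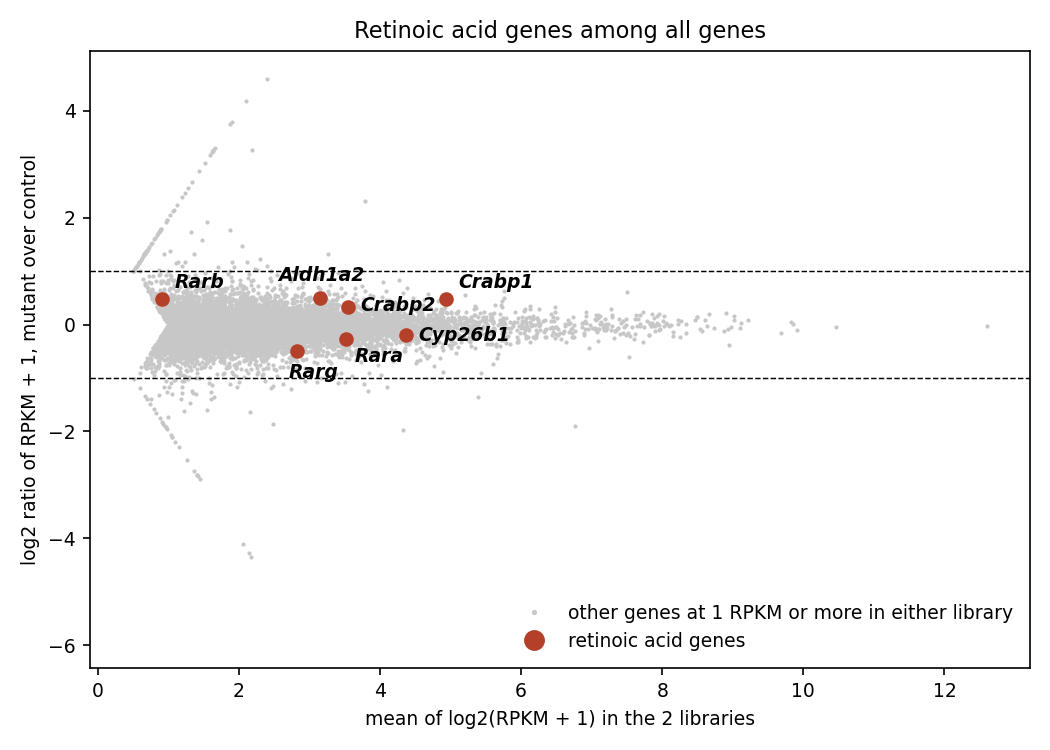
Log2 ratio of RPKM + 1 (mutant over control) against the mean of log2(RPKM + 1) in the 2 libraries, for genes at 1 RPKM or more in at least 1 library. The 7 retinoic acid genes at that level lie between the dashed lines at 2-fold, on both sides of 0.

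Aldh1a2, the main retinoic acid making enzyme of the early embryo, was higher in the mutant library. It was at 9.60 RPKM in the mutant library (95% counting interval 8.93 to 10.3, about 746 reads) and 6.47 RPKM in the control library (5.14 to 8.09, about 79 reads). The fold was 1.48 (1.17 to 1.89) and the log2 ratio 0.51. A larger absolute log2 ratio was found for 9.04% of the genes tested. Its single listed transcript, NM_009022, has 2264 bases and spans 71063596 to 71144050 of chromosome 9 in mm9.

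The other synthesis enzymes were near the limit of detection. Aldh1a1 was at 0.125 RPKM in the mutant library (0.0590 to 0.245) and 0.0955 RPKM in the control library (0.00232 to 0.510), where it rested on about 1 read. Its ratio of 1.31 had a counting interval of 0.196 to 61.9. Aldh1a3 was at 0.0906 RPKM in the mutant library and 0.0535 RPKM in the control library, again about 1 read, with a ratio of 1.70 (0.251 to 74.2). No difference of either gene was detectable at this depth.

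Cyp26b1, the retinoic acid hydroxylase with the higher level of the pair, was slightly lower in the mutant library. It was at 18.3 RPKM in the mutant library (17.7 to 19.0) and 21.1 RPKM in the control library (19.3 to 22.9). It was 1.15-fold lower (1.05 to 1.26), with a log2 ratio of -0.19, and 45.2% of the genes tested had a larger absolute log2 ratio. On the TPM scale, whose sums include the failed and high-data rows, the interval of its mutant over control fold was 0.874 to 1.05 and included 1. With ratios centred on the median of all genes it was 0.8185 to 0.9866 and lay below 1. The call for Cyp26b1 thus depends on which scaling is used. Cyp26a1, the other hydroxylase and itself a target of retinoic acid, was at 0.267 RPKM in the mutant library (0.150 to 0.425, about 16 reads). In the control library it was at 0.146 RPKM (0.00264 to 0.582, about 1 read). The ratio was 1.84 with a counting interval of 0.390 to 105, so no difference of Cyp26a1, whose upstream repeat is shown above, was detectable at this depth.

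Crabp1, a binding protein known from migrating cranial neural crest and its mesenchyme, was the most abundant member. It was at 35.1 RPKM in the mutant library (32.9 to 37.5) and 24.9 RPKM in the control library (20.2 to 30.2), so the intervals of the levels did not overlap. The fold was 1.41 (1.15 to 1.76) and the log2 ratio 0.48, and 10.5% of the genes tested had a larger absolute log2 ratio. Crabp1 lies on chromosome 9 from 54612615 to 54620916 in mm9. Crabp2, which passes retinoic acid on to the receptors, was at 12.1 RPKM in the mutant library (10.9 to 13.4) and 9.34 RPKM in the control library (6.78 to 12.4). Its fold of 1.29 had an interval of 0.952 to 1.81, which includes 1. On the TPM scale the interval of Crabp2 was 1.05 to 2.0 and lay above 1. With ratios centred on the median of all genes it was 0.982 to 1.87 and included 1.

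The receptor genes differed among themselves in direction. Rarg, the receptor gene known for its expression in skin and in condensing skeletal tissue, was at 5.0 RPKM in the mutant library (4.56 to 5.47) and 7.41 RPKM in the control library (6.13 to 8.94). It was 1.48-fold lower (1.21 to 1.84), with a log2 ratio of -0.49, and 10.1% of the genes tested had a larger absolute log2 ratio. Rarg lies on chromosome 15, as Osr2 does, 66.8 Mb away. Rara, the broadly expressed receptor gene, was at 9.45 RPKM in the mutant library (8.88 to 10.04) and 11.5 RPKM in the control library (9.96 to 13.3). It was 1.22-fold lower (1.03 to 1.404), with a log2 ratio of -0.26. For Rara the interval included 1 once ratios were centred on the median of all genes (0.735 to 1.003, mutant over control) and on the TPM scale (0.785 to 1.07). It also did with 1.5 times as many bases taken as 1 read (0.686 to 1.01).

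Rarb, a receptor gene that is also a classic target of retinoic acid, was the only one of the 3 receptor genes higher in the mutant library. It was at 1.22 RPKM in the mutant library (1.01 to 1.46, about 116 reads) and 0.591 RPKM in the control library (0.276 to 1.15, about 9 reads). The fold was 2.07 (1.03 to 4.53), but the log2 ratio with 1 RPKM added was 0.48. Taking 1.5 times as many bases as 1 read widened the interval of Rarb to 0.895 to 5.72. Rarb reached 1 RPKM only in the mutant library, so among genes picked by that filter it had to lie on the higher side. The Rarb row is a single transcript, NM_011243, on chromosome 14 from 17263354 to 17407724 in mm9.

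**Figure D3:**
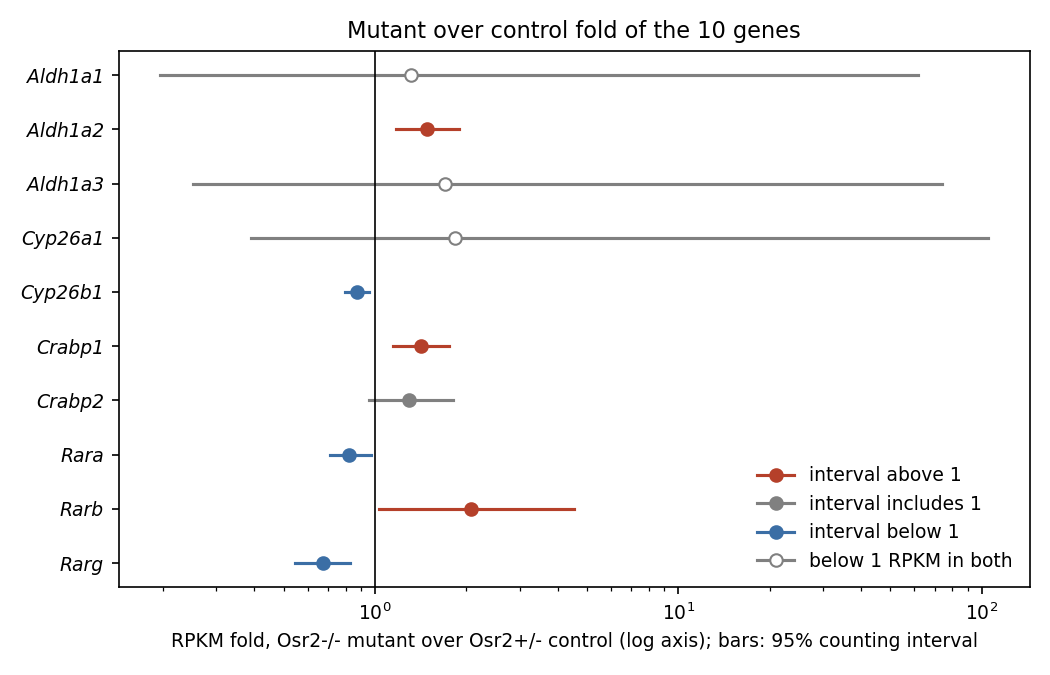
RPKM fold, mutant over control, of the 10 genes on a log axis with 95% counting intervals; filled points reached 1 RPKM in at least 1 library. Aldh1a2, Crabp1 and Rarb lay above 1 and Cyp26b1, Rara and Rarg below 1, while the 3 genes on about 1 control read had intervals that span more than 100-fold.

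Ratios between members within a library do not depend on how the libraries are scaled. They show only that genes differed unequally, and the 8 ratios computed were chosen after the levels were seen. The ratio of Aldh1a2 to Cyp26b1 was 0.524 in the mutant library (0.483 to 0.569) and 0.307 in the control library (0.239 to 0.389). The ratio of summed Crabp to summed receptor RPKM was 3.01 in the mutant library (2.80 to 3.24) and 1.75 in the control library (1.43 to 2.14). Aldh1a2 relative to Cyp26b1, and the binding proteins relative to the receptors, were thus higher in the mutant library beyond counting error.

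Within the families the ratios were closer where the abundant members were compared. Crabp1 stood to Crabp2 as 2.91 in the mutant library (2.58 to 3.30) and 2.66 in the control library (1.85 to 3.88). Rara stood to Rarg as 1.89 in the mutant library (1.70 to 2.11) and 1.56 in the control library (1.23 to 1.98). The intervals of both of these ratios overlapped between the libraries. Rara stood to Rarb as 7.73 in the mutant library (6.38 to 9.45) and 19.5 in the control library (10.1 to 43.3), which did not overlap but rests on about 9 control reads of Rarb, a gene that reached 1 RPKM only in the mutant library. Several of the 8 ratios share genes, and the same ratios over other gene pairs were not computed.

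The members with more than 1 listed transcript were Rara, Rarg and Cyp26b1. All Rara rows end at the same base of chromosome 11, and NM_009024 and NM_001177303 start 2015 bases apart. NM_009024 was at 5.20 RPKM in the mutant library and 3.01 RPKM in the control library, 1.73-fold higher (1.29 to 2.32). NM_001177303 was at 3.27 RPKM in the mutant library and 7.86 RPKM in the control library, 2.40-fold lower (1.95 to 2.94), with a log2 ratio of -1.05. NM_009024 thus held 55.1% of Rara RPKM in the mutant library and 26.1% in the control library, and NM_001177303 held 34.6% and 68.1%. Of the other Rara rows, NM_001176528 was at 0.865 RPKM in the mutant library and 0.665 RPKM in the control library. NM_001177302 was at 0.109 RPKM in the mutant library and nearly 0 in the control library. The rows share most of their exons, so how reads were divided between them is an estimate of the authors' software. Rows of other genes also moved in opposite directions. There were 1030 genes with at least 2 rows that reached 1 RPKM in at least 1 library. Of these, 432 (41.9%) had a row at least 0.5 higher and another at least 0.5 lower in log2 ratio. A row that reached 1 RPKM in only 1 library had to lie on that side, which can add to this share. NM_009024 and NM_001177303 reached it in both libraries, with log2 ratios of 0.63 and -1.05. How common so wide a split was among such rows was not computed.

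RefSeq windows with the same spacing of 2015 bases are shown for the starts of NM_009024 and NM_001177303, the Rara rows with the highest RPKM. Rara had 4 windows, and the others are not shown. They lie on the plus strand of chromosome 11 at chr11:98937446-98937745 and chr11:98939461-98939760 in GRCm38.p6, and capitals mark single half-sites on either strand.
Rara, first start: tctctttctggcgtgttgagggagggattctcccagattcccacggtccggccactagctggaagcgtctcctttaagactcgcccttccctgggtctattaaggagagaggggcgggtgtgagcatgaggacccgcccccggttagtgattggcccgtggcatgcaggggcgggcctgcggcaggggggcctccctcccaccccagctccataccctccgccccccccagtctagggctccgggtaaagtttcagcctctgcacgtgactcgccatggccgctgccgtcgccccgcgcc
Rara, later start: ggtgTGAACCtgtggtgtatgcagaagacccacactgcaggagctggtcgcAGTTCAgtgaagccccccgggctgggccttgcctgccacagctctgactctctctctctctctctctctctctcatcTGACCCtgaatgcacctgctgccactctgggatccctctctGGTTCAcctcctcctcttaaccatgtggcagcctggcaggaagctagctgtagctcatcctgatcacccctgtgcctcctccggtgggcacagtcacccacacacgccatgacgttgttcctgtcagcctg
The first window held no half-site and the later window 4, none of them paired at a spacing of 1, 2 or 5 bases. At least 1 half-site was found in 43.7% of all windows.

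Of the Rarg rows, NM_011244, which starts farther upstream, was at 3.37 RPKM in the mutant library and 5.50 RPKM in the control library, 1.63-fold lower (1.27 to 2.07). NM_001042727 was at 1.63 RPKM in the mutant library and 1.92 RPKM in the control library, 1.18-fold lower (0.762 to 1.81). The lower level of Rarg thus lay mostly on the upstream-start row, but the difference between the rows was not tested. Cyp26b1 was carried by NM_001177713, at 17.6 RPKM in the mutant library and 21.1 RPKM in the control library. Its other row, NM_175475, was at 0.734 RPKM in the mutant library (about 120 reads) and listed at nearly 0 in the control library. The interval of its mutant over control fold ran from 5.02 with no upper bound, opposite in direction to the Cyp26b1 sum. The 2 rows start 98 bases apart. For Rarg and Cyp26b1, too, how reads were divided between rows is an estimate of the authors' software.

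**Figure D4:**
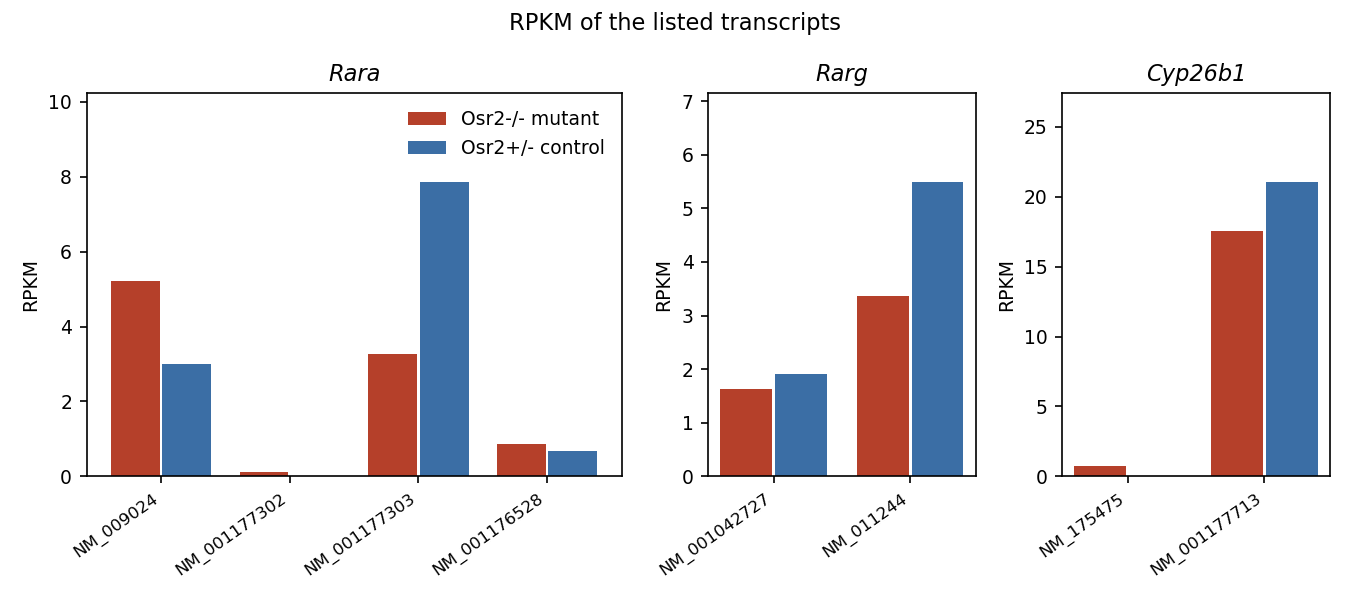
RPKM of each listed transcript of Rara, Rarg and Cyp26b1, with the Osr2-/- mutant library left of the Osr2+/- control library. NM_009024 of Rara was at 5.20 RPKM in the mutant and 3.01 RPKM in the control, NM_001177303 at 3.27 and 7.86 RPKM.

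The RXR partners of the receptors had intervals that included 1. Rxra was at 7.61 RPKM in the mutant library and 8.43 RPKM in the control library, 1.11-fold lower (0.962 to 1.27), and Rxrb at 2.13 and 2.16 RPKM, 1.01-fold lower (0.713 to 1.59). Rxrg was listed at 0 in both.

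Of the genes that bring in, carry and store retinol, few were expressed at 1 RPKM. Dgat1, an acyltransferase gene that also esterifies retinol, was at 1.69 RPKM in the mutant library and 0.738 RPKM in the control library on about 7 reads, 2.30-fold higher (1.07 to 5.83). Like Rarb, Dgat1 reached 1 RPKM only in the mutant library and so had to lie on the higher side. Of the 11 genes on the list, 9 stayed below 1 RPKM, among them Stra6, the receptor gene for the retinol carrier, at 0.484 RPKM in the mutant library and 0.267 RPKM in the control library.

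Among 17 enzymes that interconvert retinol and retinal, 6 reached 1 RPKM, with 1 interval above 1, 1 below 1 and a median log2 ratio of -0.12. Over all genes tested, 7.87% lay above 1 and 15.9% below 1. Rdh10, the main embryonic retinol dehydrogenase, was at 3.16 RPKM in the mutant library and 2.98 RPKM in the control library, a ratio of 1.06 (0.745 to 1.53). Adh5, an alcohol dehydrogenase gene found in most tissues, was at 13.9 RPKM in the mutant library and 11.2 RPKM in the control library, 1.25-fold higher (1.003 to 1.57). Rdh14 was at 1.35 RPKM in the mutant library and 2.57 RPKM in the control library, 1.91-fold lower (1.08 to 3.13). Dhrs4 was at 4.64 RPKM in the mutant library and 5.98 RPKM in the control library, Rdh11 at 1.54 and 1.29 RPKM, and Rdh13 at 0.703 and 1.10 RPKM, each with an interval that included 1. Cyp1b1, a P450 gene whose enzyme can oxidise retinol and retinal, was at 12.1 RPKM in the mutant library and 15.2 RPKM in the control library, 1.26-fold lower (1.13 to 1.4). Fabp5, a fatty acid carrier that can also bind retinoic acid, had 10.2 RPKM in the mutant library and 9.48 RPKM in the control library, with a ratio of 1.07 (0.785 to 1.47). Cyp26c1, the remaining hydroxylase of its family, was at 0.164 RPKM in the mutant library and 0.158 RPKM in the control library, and Aldh8a1 was listed at 0 in both.

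Coregulators of nuclear receptors were all expressed, and most had an interval that included 1. All 14 reached 1 RPKM. The interval lay above 1 for 2 of them and below 1 for 3, against 23.8% of all genes tested in either direction. Their median log2 ratio was -0.05, as over all genes tested. The coactivator gene Ncoa3 was 1.35-fold higher (1.04 to 1.79) and Nrip1, a corepressor gene that retinoic acid induces, 1.37-fold higher (1.08 to 1.75). Lower were Ep300, 1.22-fold (1.08 to 1.37), Sin3a, 1.19-fold (1.05 to 1.39), and Ncoa2, 1.17-fold (1.03 to 1.32). The interval of Med25 included 1, at 3.94 RPKM in the mutant library and 4.44 RPKM in the control library.

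Genes known to respond to retinoic acid in other embryonic tissues or cells lay on both sides. Of 20 on the list, 9 reached 1 RPKM, and their median log2 ratio was 0.05. The interval lay above 1 for 2 of them and below 1 for 1, against 7.87% and 15.9% of all genes tested. Meis1, a homeobox gene, was at 1.49 RPKM in the mutant library and 0.681 RPKM in the control library, 2.19-fold higher (1.20 to 4.02), and Nrip1 was the other. Meis1 reached 1 RPKM only in the mutant library and so had to lie on the higher side, which leaves 1 interval above 1 among the 8 genes that reached it in both. Nr2f2, an orphan nuclear receptor gene, was at 3.84 RPKM in the mutant library and 5.87 RPKM in the control library, 1.53-fold lower (1.26 to 1.86). In the mutant and the control library, Meis2, a relative of Meis1, was at 4.48 and 4.44 RPKM, Tgm2 at 3.57 and 3.89 RPKM, Rai14 at 13.3 and 12.8 RPKM, and Btg2 at 1.41 and 1.17 RPKM. Their intervals included 1. Dhrs3, a retinal reductase gene induced by retinoic acid, stayed just under the limit at 0.720 RPKM in the mutant library and 0.989 RPKM in the control library. Stra8, Cdx1 and Hoxb1 were listed at 0 in both libraries. The list shares Dhrs3, Stra6 and Nrip1, among others, with the other lists.

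**Figure D5:**
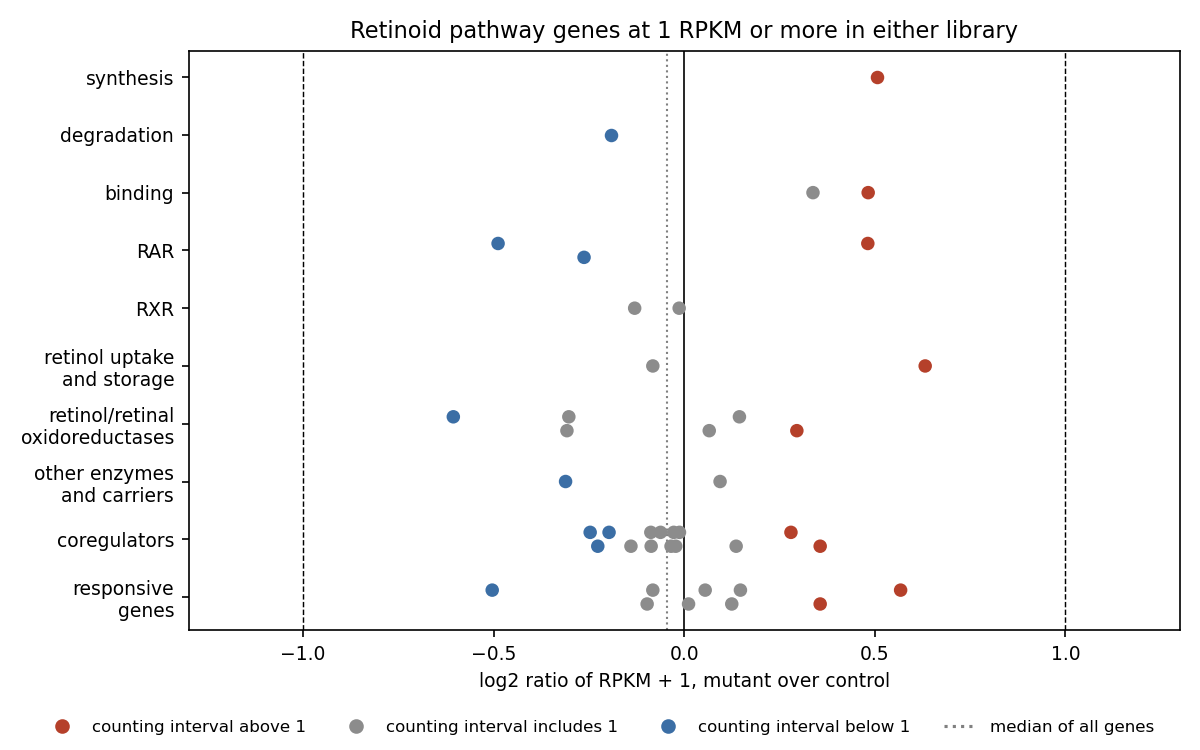
Log2 ratio of RPKM + 1 (mutant over control) of each retinoid pathway gene at 1 RPKM or more in at least 1 library, by role, coloured by whether the 95% counting interval of the fold lay above, around or below 1. All points lie within 2-fold (dashed lines), and the dotted line is the median of all genes, -0.05.

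Marker RNA of other cell types was measured beside these genes, and its calls are set against the 7.87% of all genes tested with an interval above 1 and the 15.9% below 1. Of 18 epithelial markers kept, 15 reached 1 RPKM, of which 8 had an interval above 1 and 0 below 1. Of the 12 that did so in both libraries, 6 lay above 1. Krt14 was at 8.28 RPKM in the mutant library and 5.80 RPKM in the control library. Cldn7 and Shh had about 18 and 16 reads in the mutant library and were listed at 0 in the shallower control library, with intervals that included 1. Of 9 osteoblast markers 6 reached 1 RPKM, of which 5 had an interval above 1 and 1 below 1, with Ibsp at 13.0 RPKM in the mutant library and 0.459 RPKM in the control library. Only 3 of these reached 1 RPKM in both libraries, of which 2 lay above 1 and 1 below 1. Spp1, Bglap and Ifitm5 had about 5, 2 and 27 reads in the mutant library and were listed at 0 in the control library, and the intervals of Spp1 and Bglap included 1. Of the 12 mesenchyme markers 7 had an interval below 1 and none above it, with Pax9 at 39.4 RPKM in the mutant library and 61.7 RPKM in the control library. Of 13 erythroid markers 8 reached 1 RPKM, all of them in both libraries, of which 6 had an interval below 1 and none above it. Endothelial markers summed to 27.9 RPKM in the mutant library and 33.9 RPKM in the control library, macrophage markers to 20.9 and 25.4 RPKM, neuron and glia markers to 7.38 and 3.70 RPKM, and muscle markers to 5.34 and 3.90 RPKM. Of these, 0 of 2 muscle markers tested had an interval off 1, and 2 of 2 neuron and glia markers lay above 1. Below 1 lay 1 of 7 macrophage and 2 of 9 endothelial markers. Tie1, 1 of these endothelial markers, reached 1 RPKM only in the control library and so had to lie on the lower side. Of the 8 endothelial markers that reached it in both libraries, 1 lay below 1. The part of any of these cell types in the values of Aldh1a2, Crabp1, Rarb, Rarg or the other members was not tested. Fewer cells of a type and less RNA per cell cannot be told apart in such bulk libraries. Lane and genotype cannot be told apart either, since the libraries were run on different lanes, per the names of the deposited files.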

How the data were processed

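Mesenchyme of lower molars was captured by laser microdissection from frozen sections, RNA was extracted with a column kit and cDNA was amplified with the NuGEN Ovation RNA-Seq v2 kit, per the labels' protocols. The submitters' processing notes name mm9 as the build, Bowtie 0.12.7 and TopHat 1.4.1. The authors deposited RPKM values, the coverage signal (mean read depth over each base, not scaled for library size), transcript length and locus per RefSeq transcript, per the file headers. File names point to Cufflinks, with no version.

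Rows whose status was failed or high-data (54 rows of 18 genes, no member) were left out and RPKM summed per symbol, leaving 22054 genes. The log2 ratio of RPKM + 1 was computed for all, and shares over the 9779 genes at 1 RPKM or more in at least 1 library. Approximate reads were coverage times length over 44.3 bases, the step estimated from products of 20 to 66 bases. Poisson intervals (levels) and Clopper-Pearson intervals (folds, scaled by the relative depth of 6.38) at 95% were taken from them with scipy 1.17.1 and tested on simulated data. For Rara, Rarg and Cyp26b1, whose rows differ in length, the ratio of reads can differ slightly from the RPKM fold. Locus starts are given counted from 1.

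The members, gene lists and alternatives were chosen with earlier results of these data known. Named were all members and their rows, Osr2, each gene at 1 RPKM in a list with up to 12 such genes (otherwise the 6 most extreme), and the leading markers. The values of some list genes are not reported here. Genes under 1 RPKM, Ibsp, Cldn7, Shh, Spp1, Bglap and Ifitm5 were named besides, after their values were seen. No likeness of genes was ranked, since only 2 values a gene are given.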

Additional observations from a re-analysis of the deposited data

How the results depend on the processing

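The 10 members kept the sign of their log2 ratio under each of the 11 alternatives run, but most of these could not change it. Another pseudocount leaves the sign as it is, and the highest-row setting can change it only for Rara, Rarg and Cyp26b1. The TPM scales and the centring on the median raised the mutant values relative to the control values. They could thus change the sign only of Cyp26b1, Rara and Rarg, which were lower in the mutant library. None of the alternatives could change the sign of the other members. Of 110 member values, 57 were identical to the main value, since 5 of the alternatives change no member value and single-row genes have no other row. Of the other 53, 51 stayed within the counting interval of the main value. The exceptions were Rara with only its highest transcript row (-1.05 against -0.26) and Cyp26b1 at -0.06 with values rescaled to the same sum over rows of 200 bases or more in each library, an alternative chosen after seeing the data. The counting interval of Aldh1a2 and Crabp1 stayed above 1, and that of Rarg below 1, under the 5 alternatives that moved any interval. For Aldh1a2 and Crabp1 the TPM scales and the centring could only raise it, and the highest-row setting left it unchanged. Only taking 1.5 times as many bases as 1 read could lower it, and the lower bounds were then 1.125 and 1.097.

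The number of members with an interval below 1 was 1 in place of 3 on the rescaled (TPM) scale, over all rows or those of 200 bases or more. Members at least 2-fold higher numbered 1 in place of 0 with no pseudocount and on both TPM scales, and 1 was at least 2-fold lower with only the highest row. The share of all genes at least 2-fold apart was 4.51% with a pseudocount of 0.1, 5.30% with none, 1.03% with no filter, 11.2% and 11.3% on the TPM scales, 4.34% with the highest row and 0.919% without rows under 200 bases. The 2 retinol uptake and storage genes at the filter had a median log2 ratio of 0.27, but 0.68 on both TPM scales, where more of the list passed. The TPM scale moved the median of all genes to 0.08, against -0.05. Its sums included the failed and high-data rows, and the pseudocount and the filter were kept at 1 on the rescaled values. Before rescaling, the genes kept summed to 106908 RPKM in the mutant library and 110357 RPKM in the control library. Except where the construction shows it, the cause was not tested.

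Depth limits Aldh1a1, Aldh1a3 and Cyp26a1, at about 1 control read each, and Rarb, at about 9. Leaving out a library was not possible with 1 per genotype. No paired analysis was possible because each genotype has only 1 library.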
